A study of Mus musculus with 6 samples.

Results

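The BCL2 family genes examined here were the 10 rows of the deposited gene table whose symbols are Bcl2, Bcl2l1, Bcl2l2, Bcl2l10, Mcl1, Bcl2l11, Bid, Bad, Bak1 and Bok, out of 55291 symbols in all. The rule that picks them uses their symbols. The samples were fully grown mouse oocytes, the large prophase-arrested germ cells of antral follicles. Wild-type (WT) females gave 3 libraries. Females in which Gdf9-cre removes Nat10 in a conditional knockout (Nat10 cKO) gave the other 3. Gdf9-cre acts in oocytes, so the knockout is one of the germ cell and not of the surrounding follicle. Nat10 encodes the enzyme that places N4-acetylcytidine in RNA, and the title of the series places the question in translational control during meiotic maturation. All females of both groups had received PMSG, a gonadotropin that stimulates follicle growth; collection began 32 or 36 h later, depending on the label, and ended at 48 h. Each library pooled 10 oocytes, and the labels name no age, strain or number of females. They also do not say whether libraries of a group came from separate females, so every p-value measures only the spread between these libraries, which may be partly technical.

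Proteins of the BCL2 family decide whether the outer mitochondrial membrane is opened, the step that releases cytochrome c and starts the caspases. BCL2, BCL-XL (from Bcl2l1), BCL-W (from Bcl2l2) and MCL1 hold the membrane closed by binding the pro-death proteins in a surface groove. BCL2L10 is grouped with them here, and its action in mouse oocytes was not tested. BAK1, its relative BAX and BOK form the pore, while BIM (from Bcl2l11), BID and BAD carry a short helix, the BH3 segment, that fits the groove. In the ovary the family is known for setting how many oocytes survive, and MCL1 for its role in oocyte survival.

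The coding sequence of the BH3 core is shown because the BH3 segment of a pro-death protein is the piece that fits the groove. The pro-survival members Mcl1 and Bcl2l1 carry a stretch of the same pattern. Each line gives 27 coding bases, 5′ to 3′, from GENCODE M21 transcripts on GRCm38, and the capitals mark the codon of the small residue (glycine or serine) and that of the aspartate next to it. The Mcl1 stretch lies in exon 1 of 3 at chr3:95659436-95659462 on the plus strand, that of Bcl2l1 in exon 2 of 3 at chr2:152829697-152829723 on the minus strand, that of Bcl2l11 in exon 3 of 4 at chr2:128147150-128147176 on the plus strand, and that of Bad in exon 3 of 4 at chr19:6950792-6950818 on the plus strand.
Mcl1: ctgcggcgcgtgGGCGACggcgtgcag
Bcl2l1: ctgagagaggcaGGCGATgagtttgaa
Bcl2l11: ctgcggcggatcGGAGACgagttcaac
Bad: ctccgaaggatgAGCGATgagtttgag
The pattern searched in the coding sequence was leucine or methionine, any 3 residues, glycine or serine, aspartate, and then aspartate, glutamate or glycine. It was found in 9 of the 10 members, Bcl2l10 being the one without a match, and in 8.47% of the 13910 tested genes with a coding transcript. Of the 4 stretches printed, that of Bad carries the serine codon in its capitals and the others a glycine codon. Among the members, methionine was used only by Bcl2l2, serine only by Bad and the last glycine only by Mcl1. The pattern is thus wide enough for this family, and its share among the members is no test against other genes. A match or its absence describes the letters and says nothing on binding.

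Libraries held 33520334 to 74098613 recovered reads and 23044 to 26440 detected genes. The targeted gene was checked first: Nat10 was at 42.1, 50.1 and 39.3 CPM (reads of a gene relative to the library total, scaled by TMM, which aligns the bulk of genes between libraries) in WT and at 5.72, 5.97 and 6.32 CPM in Nat10 cKO. That is a log2 fold change of -2.67 (SE 0.129, limma adjusted p = 4.29e-08), in the direction of the labels. All 12 oocyte markers listed were detected in both groups, with summed levels of 28356 to 29469 CPM in WT and 34874 to 41293 CPM in Nat10 cKO, and Gdf9, Padi6 and Bmp15 were the most abundant. Of the 12, 9 were called higher and 3 lower (Ooep, Oosp1 and Dppa3, named after their values were seen), beside 17.4% and 17.6% over all genes. The 22 granulosa and cumulus markers summed to 410 to 466 CPM in WT and 393 to 425 CPM in Nat10 cKO, most of it Serpine2, Cyp19a1 and Nr5a2. Of these 22, 8 were at or below 1 CPM in all libraries, and Amh, named after its values were seen, had 0, 0 and 0 reads in WT and 2, 2 and 10 reads in Nat10 cKO. In this list 1 gene was called higher (Inha) and 3 lower. The 13 markers of theca, stroma and endothelium (led by Pecam1, Tek and Dcn) summed to 60.0 to 60.7 CPM in WT and 72.8 to 75.6 CPM in Nat10 cKO. The 14 blood and immune markers (led by C1qb, H2-Aa and Cd68) summed to 51.5 to 56.2 CPM and 41.7 to 45.9 CPM. These sums rest on their leading genes. Without the top 3, the granulosa markers summed to 31.4 to 36.5 CPM in WT and 26.8 to 50.4 CPM in Nat10 cKO and the blood markers to 1.55 to 1.78 and 1.48 to 2.14 CPM, both overlapping. Without its top 3 the stromal list was lower in Nat10 cKO, at 1.13 to 1.27 CPM against 2.96 to 4.51 CPM in WT. Of its 6 tested genes, 1 was called higher and 2 lower. Of the 5 tested blood and immune genes, 1 was called higher and 1 lower. The part of these markers in the results on the members was not tested.

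Bcl2l10 stood far above every other member in both genotypes, and in Nat10 cKO oocytes it was lower while Mcl1 was higher. Of the 10 members, 9 had enough reads to be tested. Among them 1 rose (Mcl1) and 1 fell (Bcl2l10) at a limma adjusted p below 0.05, and 7 were not called, of which 5 had an estimate above 0 and 2 below 0. Over all 18353 tested genes, 17.4% were called higher and 17.6% were called lower in the same fit, so 1 of 9 in each direction is no larger share than the background. The median log2 fold change of the 9 tested members was 0.05, beside 0.00 over all tested genes. Groups did not overlap for 3 of the 9 (Mcl1, Bcl2l10 and Bok), against 48.3% of all tested genes.

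**Figure D1:**
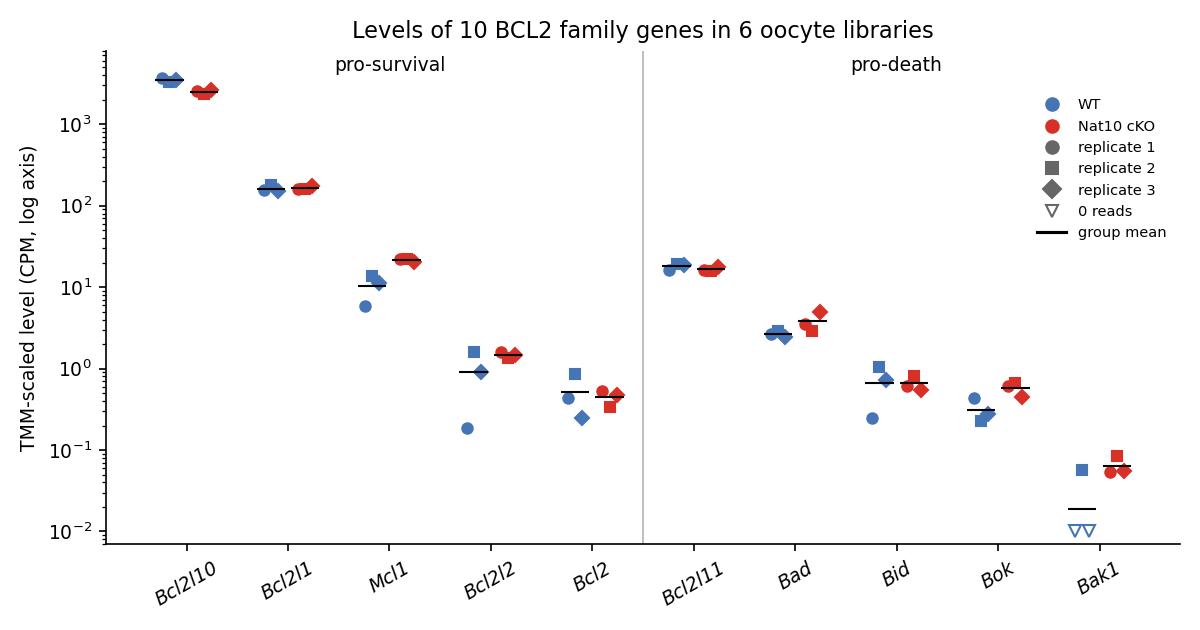
Level of each BCL2 family member in each library, in TMM-scaled CPM on a log axis, pro-survival genes on the left and pro-death genes on the right; symbols are replicates, bars are group means, and open triangles are libraries with 0 reads. Bcl2l10 lies at 2357 to 3661 CPM, Mcl1 is higher in all 3 Nat10 cKO libraries, and Bcl2l1 and Bcl2l11 overlap between genotypes.

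Bcl2l10 (ENSMUSG00000032191.5, chr9:75347758-75351632 on GRCm38, plus strand) encodes a family protein that is grouped here with the pro-survival ones. Its level was 3661, 3310 and 3474 CPM in WT replicates 1, 2 and 3 and 2542, 2357 and 2651 CPM in Nat10 cKO replicates 1, 2 and 3. Every Nat10 cKO library was below every WT library. It was the 16th most abundant of the 18353 tested genes, with 112172 to 223557 reads per library. The mean went from 3482 ± 176 CPM to 2517 ± 149 CPM (SD, n = 3 each), and the log2 fold change was -0.47 (SE 0.079, 95% interval -0.64 to -0.30, limma adjusted p = 0.000764). The call held in each fit with 1 library left out (log2 fold change -0.50 to -0.42).

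The call on Bcl2l10 depended on how libraries were scaled. The deposited values are whole reads multiplied by 1 factor per library, and they keep the differences in depth. On that scale Bcl2l10 stood at 118471, 159102 and 211307 in WT and at 174968, 101840 and 178755 in Nat10 cKO. These groups overlapped, and limma gave a log2 fold change of -0.11 (adjusted p = 0.900), where 6.58% of all genes were called higher and 1.39% lower. When the same factors were applied to shares of reads, the log2 fold change was -0.69 (limma adjusted p = 0.000212), with 5.6% of all genes called higher and 16.5% lower. The median of all genes moved to 0.24 on the deposited values and to -0.15 on the shares of reads with factors. The difference between Bcl2l10 and that median therefore had the same sign on all 3 scales, whereas the size of its change differed between them. A difference between pools in the number of cells and one in RNA per cell cannot be told apart here, and neither was tested.

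Mcl1 (ENSMUSG00000038612.16, chr3:95658788-95663176, plus strand) encodes a short-lived pro-survival protein that binds BIM, NOXA and BAK1. It was at 5.81, 13.6 and 11.4 CPM in WT and at 21.9, 22.3 and 20.4 CPM in Nat10 cKO. The lowest Nat10 cKO library was above the highest WT library, and WT replicate 1 was the lowest of all. The mean went from 10.2 ± 4.0 to 21.5 ± 1.0 CPM (SD, n = 3 each), a ratio of 2.10. The log2 fold change was 1.07 (SE 0.218, 95% interval 0.60 to 1.54, limma adjusted p = 0.00237). Without WT replicate 1 it was 0.75 (limma adjusted p = 0.00264), and without WT replicate 2 it was 1.30. The rise was called on the deposited values (1.39, limma adjusted p = 0.0109), where the levels were 188, 653 and 691 against 1511, 962 and 1375, and on shares of reads with factors (0.86, limma adjusted p = 0.00862).

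**Figure D2:**
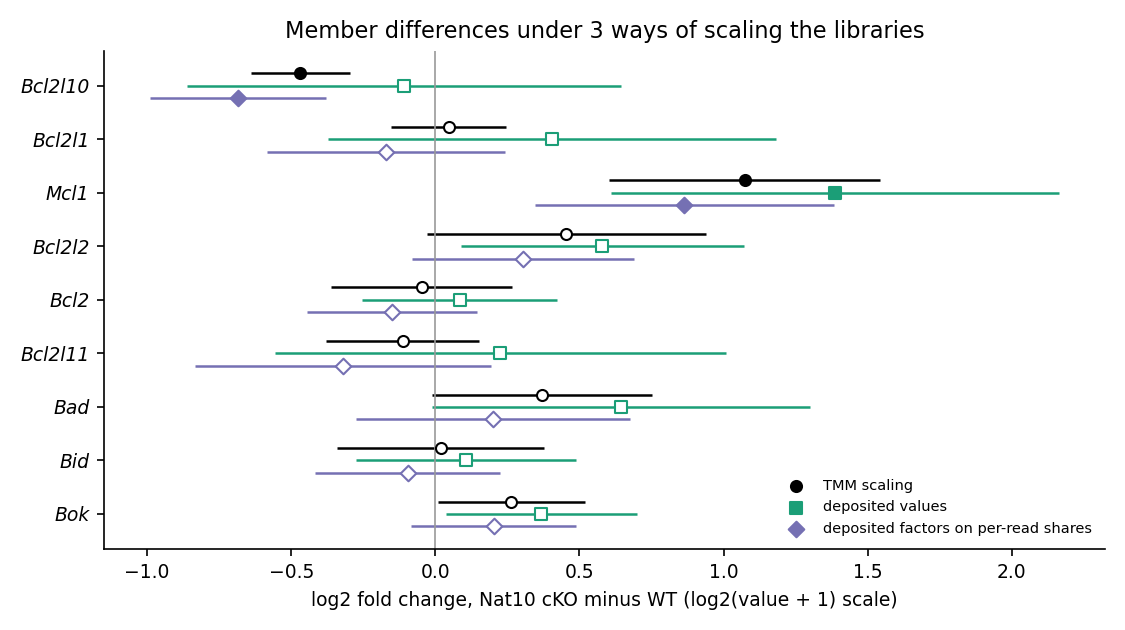
Log2 fold change of the 9 tested members (Nat10 cKO minus WT, on the log2(value + 1) scale) with 95% intervals from limma, under TMM scaling (circles), on the deposited values (squares) and with the deposited factors on shares of reads (diamonds); filled symbols have an adjusted p below 0.05. Mcl1 is filled on all 3 scales at 0.86 to 1.39, and Bcl2l10 is open on the deposited values at -0.11.

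Bcl2l1 (chr2:152780668-152831728, minus strand), the gene of BCL-XL, was the next most abundant pro-survival member, at 154, 180 and 152 CPM in WT and 162, 162 and 176 CPM in Nat10 cKO. The groups overlapped. Its log2 fold change was 0.05, with a 95% interval of -0.15 to 0.25 (limma adjusted p = 0.729), and the interval spans 0.899-fold to 1.19-fold under TMM scaling. The sign of the estimate depended on the scaling, at 0.41 on the deposited values and -0.17 on shares of reads with factors, neither called.

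The other pro-survival members were scarce. Bcl2l2, the gene of BCL-W, was at 0.185, 1.61 and 0.901 CPM in WT and at 1.6, 1.34 and 1.48 CPM in Nat10 cKO, from 6 to 120 reads per library. WT held both the lowest library (replicate 1, as for Mcl1) and the highest. The log2 fold change was 0.45 (SE 0.226, limma adjusted p = 0.134). It was called without WT replicate 2 (0.72, limma adjusted p = 0.0136) and was 0.15 without WT replicate 1. Exons of Gm20521, a gene model with 0 reads, cover 13.3% of the exonic bases of Bcl2l2 on the same strand. Reads of these shared bases may have gone uncounted. Bcl2, the founding member, had 14 to 40 reads per library, at 0.433, 0.861 and 0.249 CPM in WT and 0.535, 0.336 and 0.470 CPM in Nat10 cKO. These overlapped, and its log2 fold change was -0.05 (95% interval -0.36 to 0.27, limma adjusted p = 0.825). The log2(CPM + 1) scale narrows the interval of so scarce a gene. With a pseudocount of 0.1 it was -0.91 to 0.79.

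Among the pro-death members none was called. Bcl2l11, the gene of the BH3-only protein BIM, was the most abundant of them, at 16.4, 19.2 and 18.5 CPM in WT and 16.3, 15.7 and 17.8 CPM in Nat10 cKO. The groups overlapped, with a log2 fold change of -0.11 (95% interval -0.38 to 0.15, limma adjusted p = 0.504); on the deposited values the estimate was 0.23, again not called. Bad encodes a BH3-only protein that growth-factor kinases phosphorylate. It was at 2.66, 2.90 and 2.47 CPM in WT and 3.57, 2.90 and 5.01 CPM in Nat10 cKO, and its log2 fold change was 0.37 (95% interval -0.01 to 0.75, limma adjusted p = 0.122). Nat10 cKO replicate 3 was the highest, and without it the estimate was 0.20. Exons of Gpr137 on the opposite strand cover 20.5% of the exonic bases of Bad. If counting ignored strand, reads of the shared bases may have gone to either gene or to neither.

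Bid, whose product links death receptors to the mitochondrion after cleavage, was at 0.247, 1.03 and 0.715 CPM in WT and 0.615, 0.819 and 0.539 CPM in Nat10 cKO. The groups overlapped, with a log2 fold change of 0.02 (95% interval -0.34 to 0.38, limma adjusted p = 0.941). With a pseudocount of 0.1 the interval was wider, at -0.75 to 1.01. Exons of Bcl2l13 cover 17.7% of its exonic bases on the opposite strand, and Bcl2l13 had 16965 reads over the 6 libraries against 214 for Bid. Bok, a pore former that in some settings escapes the pro-survival proteins, was at 0.433, 0.230 and 0.280 CPM in WT and 0.615, 0.672 and 0.442 CPM in Nat10 cKO. Its groups did not overlap, by a margin of 0.433 against 0.442 CPM. The log2 fold change of 0.26 (SE 0.118) did not pass the threshold (limma adjusted p = 0.101). The ratio of its mean CPM was 1.84, and edgeR gave a log2 fold change of 0.88 (edgeR adjusted p = 0.142). Bak1, the pore former, had too few reads to be tested, at 0, 2 and 0 reads in WT and 4, 4 and 4 in Nat10 cKO. A count of 0 allows up to 3 reads if reads are independent. The counts of Bak1, Bok and Bcl2 were even in every library, so both ends of a fragment may have been counted. This was not tested, and the independent fragments may be fewer than the reads given for scarce members. Exons of Ggnbp1 on the opposite strand cover 25.5% of the exonic bases of Bak1.

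Divided by exonic length, levels of different members can be set side by side. In WT, Bcl2l10 was at 2854 ± 144 CPM per kb, Bcl2l1 at 35.3 ± 3.40, Mcl1 at 3.00 ± 1.17 and Bcl2l11 at 2.25 ± 0.185 (SD, n = 3). Bad followed at 1.05 ± 0.0841 CPM per kb, then Bcl2l2 at 0.201 ± 0.159, Bid at 0.187 ± 0.111, Bok at 0.171 ± 0.0575, Bcl2 at 0.0562 ± 0.0343 and Bak1 at 0.00795 ± 0.0138. Neighbours in this order overlapped for Mcl1 and Bcl2l11 and among Bcl2l2, Bid and Bok, and the other neighbours did not overlap. In Nat10 cKO the order was the same except that Bok (0.313 ± 0.0650) stood above Bid (0.185 ± 0.0408). There Mcl1 (6.30 ± 0.293 CPM per kb) no longer overlapped Bcl2l11 (2.07 ± 0.139), whereas Bcl2l11 and Bad (1.5 ± 0.421) did, as did Bcl2l2 (0.331 ± 0.0291) and Bok. The exonic length is that of all annotated exons of a gene together, so a gene read from a short isoform is set too low.

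As a share of the summed per-kb level of the 10 members, Bcl2l10 made up 98.7%, 98.3% and 98.6% in WT and 97.8%, 97.7% and 97.8% in Nat10 cKO. The remaining pro-survival members together went from 1.34 ± 0.217% to 2.04 ± 0.0832%, and the 5 pro-death members from 0.127 ± 0.0163% to 0.193 ± 0.0116% (SD, n = 3 each). Neither sum overlapped between genotypes, which also held for the levels of 48.3% of single tested genes. Since shares add to a fixed total, the fall of Bcl2l10 raises every other share. The sums are therefore not separate results. As shares of the same total over all 10 members, Mcl1 went from 0.105 ± 0.0449% to 0.300 ± 0.0305%, and Bcl2l1 from 1.22 ± 0.172% to 1.72 ± 0.0651%.

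A ratio of reads between a pair of members within a library does not depend on the factor or the depth of that library. There were 630, 244 and 306 reads of Bcl2l10 for each read of Mcl1 in WT, and 116, 106 and 130 in Nat10 cKO. Every Nat10 cKO library was below every WT library, and WT replicate 1 was the highest. Reads of Bcl2l10 for each read of Bcl2l1 numbered 23.8, 18.4 and 22.9 in WT and 15.7, 14.5 and 15.1 in Nat10 cKO, again without overlap. Mcl1 against Bcl2l11, a pair whose proteins bind each other, gave ratios of 0.355, 0.706 and 0.614 in WT and 1.35, 1.42 and 1.14 in Nat10 cKO. Bcl2l11 thus outnumbered Mcl1 in reads in all WT libraries, and Mcl1 outnumbered Bcl2l11 in all Nat10 cKO libraries. Per kb the ratio was 0.833, 1.66 and 1.44 in WT and 3.17, 3.34 and 2.69 in Nat10 cKO, so there Mcl1 was already above Bcl2l11 in WT replicates 2 and 3. The ratio of Bcl2l1 to Bcl2l11 was 9.39, 9.34 and 8.21 in WT and 9.98, 10.4 and 9.85 in Nat10 cKO, a small shift that also left no overlap. These ratios share members and are given without a test. Groups did not overlap for 48.3% of single tested genes under TMM scaling, so a lack of overlap is common here. The share over all pairs of genes was not computed.

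**Figure D3:**
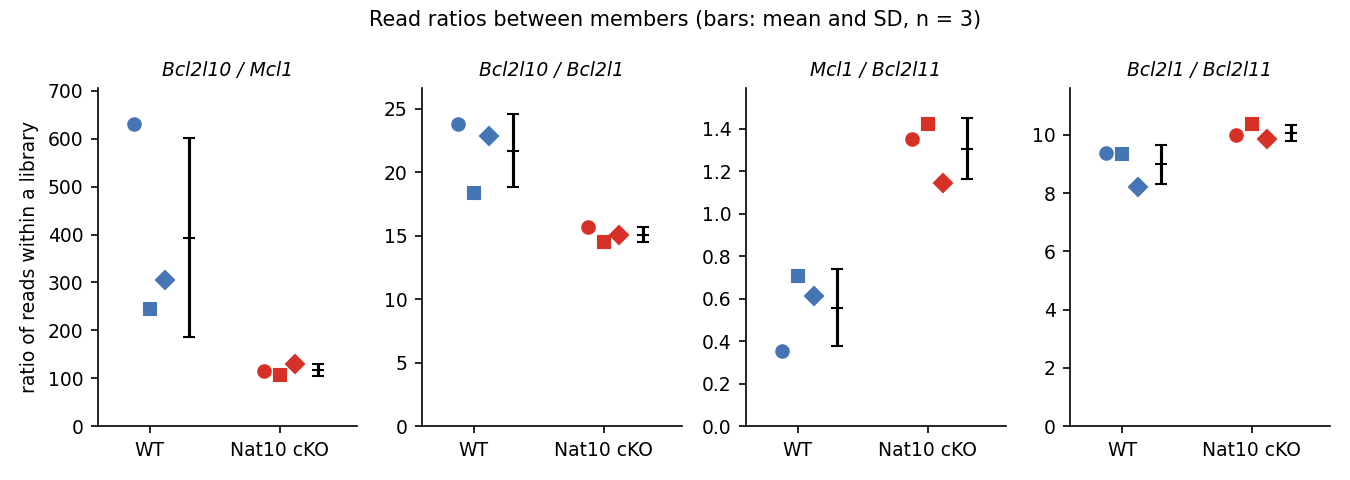
Ratio of reads between pairs of members within each library, with WT in blue and Nat10 cKO in red, replicates as separate symbols, and black bars for the mean and SD of 3 libraries. Bcl2l10 to Mcl1 falls from 244 to 630 in WT to 106 to 130 in Nat10 cKO, Mcl1 to Bcl2l11 goes from below 1 to above 1, and Bcl2l1 to Bcl2l11 stays between 8.21 and 10.4.

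The rest of the BCL2 family was followed in a list of 16 further genes, of which 10 were tested; 1 rose, 1 fell and 8 were not called, beside the shares of 17.4% and 17.6% over all genes. Bcl2l15, a little-studied family member, fell from 1.85, 1.26 and 1.68 CPM to 0.348, 0.084 and 0.263 CPM (log2 fold change -1.08, SE 0.143, limma adjusted p = 0.00017). Its groups were well apart, and its WT mean was 6.91 times its Nat10 cKO mean. The fall was called on the deposited values and on shares of reads with factors too. Bcl2l12 was at 4.73, 4.02 and 4.41 CPM in WT and 6.50, 7.37 and 6.06 CPM in Nat10 cKO (0.50, limma adjusted p = 0.0183). This rise was not called on the deposited values (limma adjusted p = 0.185), on shares with factors (0.409), or without WT replicate 3 (0.0603), Nat10 cKO replicate 1 (0.0605) or Nat10 cKO replicate 2 (0.0691). Exons of Irf3 and of an antisense model overlap Bcl2l12 on the opposite strand.

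Pmaip1, the gene of NOXA, the BH3-only protein that pairs with MCL1, was at 0.494, 0.459 and 0.404 CPM in WT and at 2.25, 4.87 and 0.249 CPM in Nat10 cKO. Nat10 cKO replicates 1 and 2 were above WT and Nat10 cKO replicate 3 was below. The log2 fold change was 0.99 (SE 0.452, limma adjusted p = 0.123), and it turned on which Nat10 cKO library was left out: 1.59 without replicate 3 (limma adjusted p = 6.2e-05), 0.47 without replicate 2 (adjusted p = 0.335). It was called on the deposited values (1.08, limma adjusted p = 0.000369), by edgeR (2.43, adjusted p = 0.0330) and by DESeq2 (2.45, adjusted p = 0.0490), but not on shares of reads with factors (0.88, limma adjusted p = 0.331).

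Bax, the pore former beside BAK1, was at 4.6, 5.0 and 4.13 CPM in WT and 5.39, 5.42 and 6.80 CPM in Nat10 cKO, without overlap and not called (log2 fold change 0.30, limma adjusted p = 0.150). The BH3-only genes Bik (-0.24), Hrk (-0.17) and Bmf (-0.03) had log2 fold changes below 0, and none was called. Bnip3 (-0.08) and Bnip3l (0.17), which act in mitophagy, and Bcl2l13 (0.17) were not called either. Of the 6 genes not tested, Bcl2a1a, Bcl2a1b and Bcl2a1c had 0 reads in all libraries, and Bcl2a1d, Bbc3 (the gene of PUMA) and Bcl2l14 were below 0.2 CPM in all. The Bcl2a1 genes are close copies of each other, so a read from one could be missed or assigned to another.

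Downstream of the membrane, 4 of the 21 apoptosome and caspase genes rose and 2 fell, beside 17.4% called higher and 17.6% called lower over all genes. Casp6, an executioner caspase, went from 1.24, 1.84 and 1.83 CPM to 6.92, 8.78 and 5.10 CPM (log2 fold change 1.57, SE 0.190, limma adjusted p = 0.0001). Apaf1, the scaffold on which cytochrome c activates caspase 9, fell from 10.8, 9.30 and 9.84 CPM to 5.48, 4.33 and 6.18 CPM (-0.81, limma adjusted p = 0.00162). Cflar, an inhibitor of caspase 8, fell from 17.1, 17.9 and 16.4 CPM to 9.14, 7.71 and 11.8 CPM (-0.80, limma adjusted p = 0.00147). In each of these the groups were separate. Birc2, an inhibitor of apoptosis, rose by 0.66 (limma adjusted p = 0.00409). The list thus held rises and falls of activators and of inhibitors alike, with a median of -0.02; on the deposited values 1 rose and 0 fell (limma), and on shares with factors 1 rose and 2 fell.

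Of 16 partners of the family at the outer membrane and the endoplasmic reticulum, 1 rose and 2 fell, beside 17.4% called higher and 17.6% called lower over all genes (list median 0.04). Vdac2, the channel that carries BAK1 to the membrane, fell from 217, 195 and 214 CPM to 158, 133 and 174 CPM (log2 fold change -0.43, limma adjusted p = 0.00641). Mfn1, a fusion factor, fell by 0.34 (limma adjusted p = 0.0185), a call lost without WT replicate 3 or without Nat10 cKO replicate 1 or 2 (adjusted p 0.0566 to 0.0893). Itpr3, a calcium release channel, rose by 0.65 (limma adjusted p = 0.00908), and Dnm1l, the fission GTPase, had an estimate of 0.24 that was not called (adjusted p = 0.0656). None of the 16 was called on the deposited values, where 4 of the genes of all 5 pathway lists were called in place of 27.

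**Figure D4:**
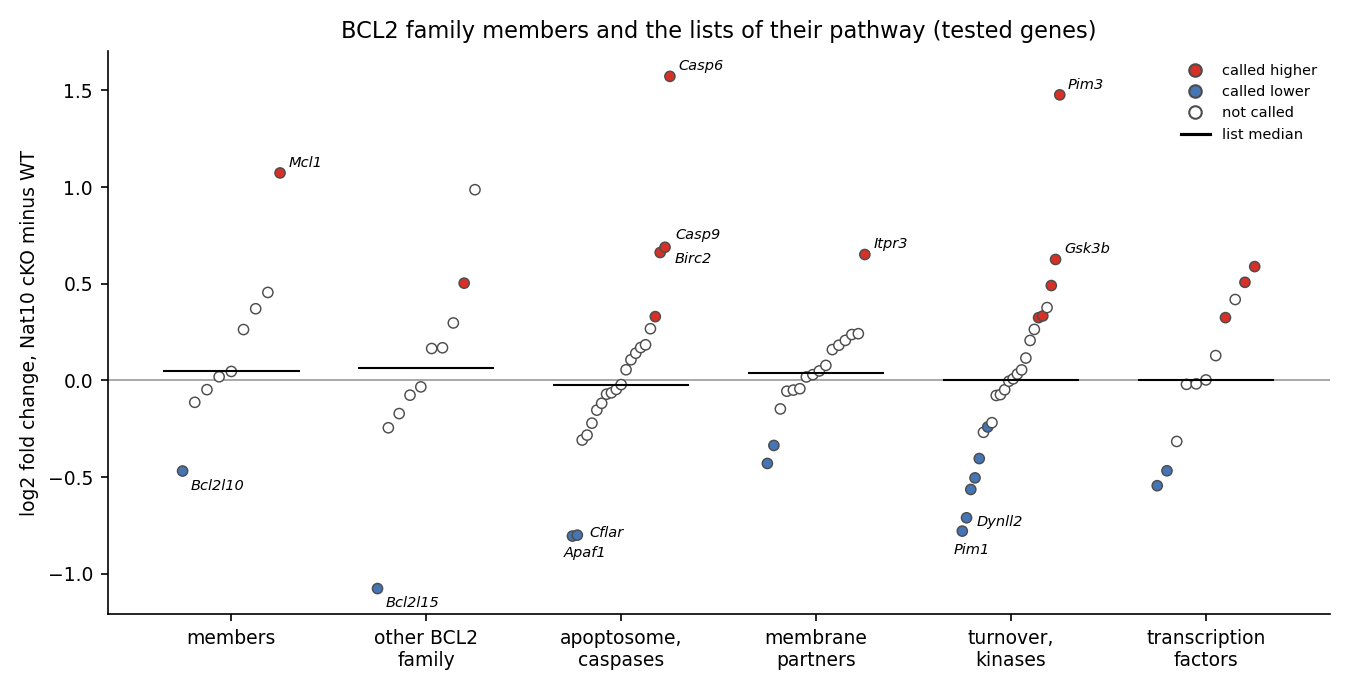
Log2 fold change (Nat10 cKO minus WT, TMM scaling) of each tested gene among the members and in 5 lists of their pathway; red is called higher, blue called lower, white not called, and bars are list medians. Every list spans both directions, from Bcl2l15 at -1.08 to Casp6 at 1.57, and all medians lie between -0.02 and 0.07. The log2(CPM + 1) scale understates the changes of low genes such as Bcl2l15.

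Of 24 genes that act on the stability or phosphorylation of the family's proteins, 5 rose and 6 fell, beside 17.4% called higher and 17.6% called lower over all genes, with a list median of 0.00. Pim3, a kinase whose family phosphorylates BAD, rose from 2.72, 4.36 and 3.36 CPM to 9.49, 14.4 and 10.6 CPM (log2 fold change 1.48, limma adjusted p = 0.00012). Gsk3b, a kinase that marks MCL1 for degradation, rose by 0.63 (limma adjusted p = 0.00211). Dynll2, a dynein light chain that binds BMF, fell by 0.71 (limma adjusted p = 0.00168), and Pak1, a kinase that acts on BAD, fell by 0.50 (limma adjusted p = 0.00086). On the deposited values 1 gene rose and 0 fell, and on shares with factors 1 rose and 5 fell.

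Among 11 transcription factors and regulators known to act on BCL2 family genes, 3 rose and 2 fell, beside 17.4% called higher and 17.6% called lower over all genes, with a list median of 0.00. Trp63, whose TAp63 form guards oocyte quality, was at 29.0, 37.9 and 34.2 CPM in WT and 52.3, 56.1 and 44.9 CPM in Nat10 cKO (log2 fold change 0.59, limma adjusted p = 0.00284). Trp53 rose by 0.51 (limma adjusted p = 0.00367). Foxo3, a factor that acts on Bcl2l11 and keeps follicles dormant, fell from 322, 344 and 326 CPM to 227, 193 and 265 CPM (-0.54, limma adjusted p = 0.00184), and Foxo1 fell by 0.47 (limma adjusted p = 0.00788). None of the 11 was called on the deposited values, and 0 rose and 2 fell on shares with factors (limma).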

How the data were processed

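The authors deposited 1 table of gene-level values for 6 libraries. Smart-seq2 on polyadenylated RNA, per the labels' protocols, reads whole transcripts; the mm10 build, featureCounts, STAR 2.7.10a and Trim Galore 0.6.7 are named, per the submitters' processing notes. Not given in the sources used here were settings, annotation and strand use. The deposited column of WT replicate 1 holds whole counts. In the other 5 columns the deposited signal is whole reads times 1 factor per library (1.38, 0.945, 0.920, 0.908 and 0.932); division by each column's minimum returned whole reads in 100% of values (tolerance 0.001). ERCC spike-in (0.2 µl at 1:1000 per sample, per the labels) was not analysed here, and the formula of the factors is not stated.

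Reads were scaled by TMM and tested with limma (trended, robust) on log2(CPM + 1), on the 18353 genes that filterByExpr kept at a minimum count of 10. Fold changes on this scale understate the change of low genes. Adjusted p-values are two-sided Benjamini-Hochberg values over all tested genes, at 0.05. Alternatives were median-of-ratios factors, library sizes only, the deposited values, the deposited factors on shares of reads, edgeR, DESeq2, a pseudocount of 0.1, no filter, a block for the replicate number, and leaving out each library. The fit was also run on simulated counts, in which a smaller share of genes changed than was called here. That run is not used to support any result. Positions, lengths and sequences came from GENCODE M21 on GRCm38, the assembly of mm10, which matched 53292 of 55291 symbols.

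The members and the gene lists were chosen with earlier results of these data known. Named genes are the members, Nat10, all tested genes of the other BCL2 family list, the 4 smallest p of each other pathway list, the 3 most abundant of each marker list, and the 3 genes closest in pattern to Mcl1 and Bcl2l10. Libraries of a group differed by more than sampling noise (chi-square per degree of freedom 12.3 to 48.6). Versions were limma 3.58.1, edgeR 4.0.16 and DESeq2 1.42.0 under R 4.3.3, and pandas 2.3.3, matplotlib 3.10.9 and numpy 2.4.6 under Python 3.11.15.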

Additional observations from a re-analysis of the deposited data

How the results depend on the processing

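Mcl1 was called higher under all 15 alternatives run (log2 fold change 0.75 to 1.39), and Bcl2l10 was called lower under 14 of 15, the exception being the deposited values, where 0 members were called lower (limma; Bcl2l10 -0.11, adjusted p = 0.900). With 1 library left out, 1 to 2 members were called higher and 1 lower (the additional one was Bcl2l2, 0.72, without WT replicate 2), 4308 to 6683 genes were called of all tested, against 6422 with all libraries, and 20 to 31 pathway genes, against 27. On the deposited values 1462 genes and 4 pathway genes were called; with the deposited factors on shares of reads, 4055 and 13. Of the uncalled members, Bcl2 (0.0841) and Bcl2l11 (0.226) turned above 0 on the deposited values. On shares with factors, Bcl2l1 (-0.170) and Bid (-0.0957) turned below 0, and Bid did so by edgeR (-0.0388) and DESeq2 (-0.0215). With 1 library left out, Bcl2 ranged from -0.176 to 0.114 and Bid from -0.175 to 0.180. Among other named genes the sign changed on the deposited values for Bmf (0.0222), Bik (0.101), Bnip3 (0.268) and Mfn1 (0.0213), and on shares with factors for Bcl2l13 (-0.0453) and Bnip3l (-0.0520). With 1 library left out, Bmf ranged from -0.0435 to 0.0191 (leaving out WT replicate 3, or replicate 1 of Nat10 cKO, put it under the filter) and Bnip3 from -0.157 to 0.0302. The cause was not tested. Without division by length, Bcl2l10 made up 94.7% of the members' CPM in WT and 92.2% in Nat10 cKO, since its exons are shorter than those of the other members. Bid, Bcl2, Bok, Bak1 and, in WT replicate 1, Bcl2l2 had under 50 reads in some or all libraries, which limits what could be detected for them.

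Samples with the same replicate number did not deviate together (correlation of deviations 0.079, 0.075 and -0.120). Those with unlike numbers gave -0.231 to 0.237. This shows no sign of pairing, but 3 libraries per group are too few to exclude it. With the replicate number as a block, 1 member was called higher and 1 lower, 6234 genes were called of all tested and 24 pathway genes.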

Other observations

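By root mean square difference of centred log2(CPM + 1) over the 6 libraries, the genes closest in pattern to Mcl1 were Gemin2 (0.0732), Rxrb (0.0771) and Zmym5 (0.0828). Zmym5 was at 4.82, 11.0 and 8.45 CPM in WT and 17.7, 19.2 and 14.8 CPM in Nat10 cKO, so these genes were also lowest in WT replicate 1. The genes closest to Bcl2l10 were Suv39h2 (0.0259), Tent4b (0.0262) and Tyms (0.0271), and Tyms was at 228, 204 and 220 CPM in WT and 159, 146 and 173 CPM in Nat10 cKO. Likeness in 6 libraries of 2 groups rests mostly on the difference between the groups and is a description.

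N4-acetylcytidine has been mapped mainly to CCG triplets in other systems, and the reference transcripts of the members differ widely in them. Mcl1 held 12.3 CCG per kb of transcript (the 80.5th percentile of 13910 tested genes with a coding transcript) and Bcl2l10 held 8.20 (the 54.1st), against a median of 7.73. Bad, which was not called, had the most at 20.7 per kb (the 97.2nd percentile). The coding GC content of Mcl1 was 64.6%, against a median of 52.3%. Every member lay above that median, from Bid at 53.4% upward, with Bcl2l10 at 54.5%. Bok (62.9%) and Bad (62.4%), which were not called, were close to Mcl1. Acetylation itself was not measured in these libraries.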
